A study of Mus musculus with 14 samples.

Results

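Chromosome 19, the smallest mouse autosome, held 317 of the 7929 regions (4.00%) that the study listed for the transcription factor SOX10 in PY230 mammary tumors. They are all regions that the deposited list places on that chromosome, with coordinates of the mouse build mm9. The chromosome was chosen by its number of regions and their spacing in this list, so those values are given as a description. The list is the deposited result for 2 SOX10 ChIP samples set against 1 control sample, in a series of 14 samples. All 3 samples came from tumors of adult C57BL6J mice that had received PY230 cells, a line established from a mammary tumor of a mouse carrying the polyoma middle T oncogene. In the ChIP samples the cells carried SOX10 with an AVI tag together with BirA, the ligase that puts biotin on that tag. What the control cells carried is described only as control. Chromatin from 500k cells was captured on streptavidin beads, washed with 2% SDS and tagged by transposase on the beads (ChIPmentation). The labels do not say how many animals or clones stand behind a sample, and one label speaks of bulk tumors where another speaks of sorted tumor cells. The tumor tissue was not checked against marker genes, since the list holds no expression values.

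SOX10 belongs to the SoxE group of HMG-box factors, which bind the minor groove of DNA and bend it. It is known for its part in neural crest, glia and melanocytes, and in the mammary gland it is found in fetal stem cells, in progenitor cells and in tumors of basal-like character. A region in a ChIP list marks a stretch of chromatin recovered with the tagged protein, and a group of neighbouring regions can be 1 broad site or several separate ones.

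The 317 regions were spread over chromosome 19 more evenly, by the coefficient of variation of counts per 5 Mb window, than the regions of any of the other 18 autosomes over theirs. The 11 whole windows from 5 to 60 Mb held 27 ± 10.3 regions (SD over windows), with 11 in the emptiest and 45 in the fullest. At the scale of kilobases the same regions were grouped. Of 316 gaps between neighbours, 85 (26.9%, exact binomial 95% interval 22.1 to 32.1) were under 10 kb, against a median of 20.8% over the other autosomes. Short gaps are more frequent where density is higher, and chromosome 19 had 5.17 regions per Mb against a median of 2.62. Chromosomes 4 and 15, of like density, had 30.3% and 27.6% of gaps under 10 kb. Among the 50% of the list with the highest signal the share on chromosome 19 was 16.0%, the seventh highest of 19 instead of the fourth. The median signal of 0.0300 was the fourth highest of 19 and the median width of 674 bp was the tenth. Because the list is 1 pooled result, no value has a replicate error and no difference between chromosomes was tested. Intervals cover counting error only and treat regions as independent.

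Chromosome 19 had 5.17 regions per Mb (exact Poisson 95% interval 4.62 to 5.77). Only chromosome 4 had more, at 5.39 per Mb, and chromosome 15 had 5.15, inside the interval of chromosome 19. When regions less than 10 kb apart were counted once, chromosome 19 had 3.79 units per Mb and ranked highest of the 19 autosomes by a narrow margin. It had 232 units over 61.3 Mb. Chromosomes 4, 13 and 15 came close, with 582 over 155 Mb, 441 over 118 Mb and 386 over 103 Mb. Its regions covered 254 kb, or 0.414% of the chromosome, where the other autosomes ranged from 0.155% (chromosome 17) to 0.537% (chromosome 4). Chromosome 19 was also rich in genes. The RefSeq table for GRCm38.p6 lists 705 protein-coding genes on it, or 11.5 per Mb of the length seen in the list, the fourth highest of 19. Per 100 coding genes it held 45.0 regions, the seventh highest, against a median of 34.1 and a range of 16.2 (chromosome 7) to 77.1 (chromosome 18) on the others. Over the 19 autosomes, which share 1 list, Spearman's rho between coding genes per Mb and regions per Mb was -0.11.

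From the start of the chromosome, the first window, 0 to 5 Mb, held 16 regions, the first of them from 3333991 to 3334383. The windows from 5 to 10 Mb and from 10 to 15 Mb held 33 and 32. A low followed from 15 to 20 Mb with 15 regions, next to the peak from 20 to 25 Mb with 45. The windows from 25 to 50 Mb held 33, 26, 18, 29 and 19 regions in turn. The window from 50 to 55 Mb held 11 and the one from 55 to 60 Mb held 36. The last 1.29 Mb held 4. Dense windows thus stood next to sparse ones at both places, and Spearman's rho between neighbouring windows was -0.20 over 10 pairs, with a median of 0.094 on the other autosomes. Between count and window order the rho was -0.24 over 11 windows.

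**Figure D1:**
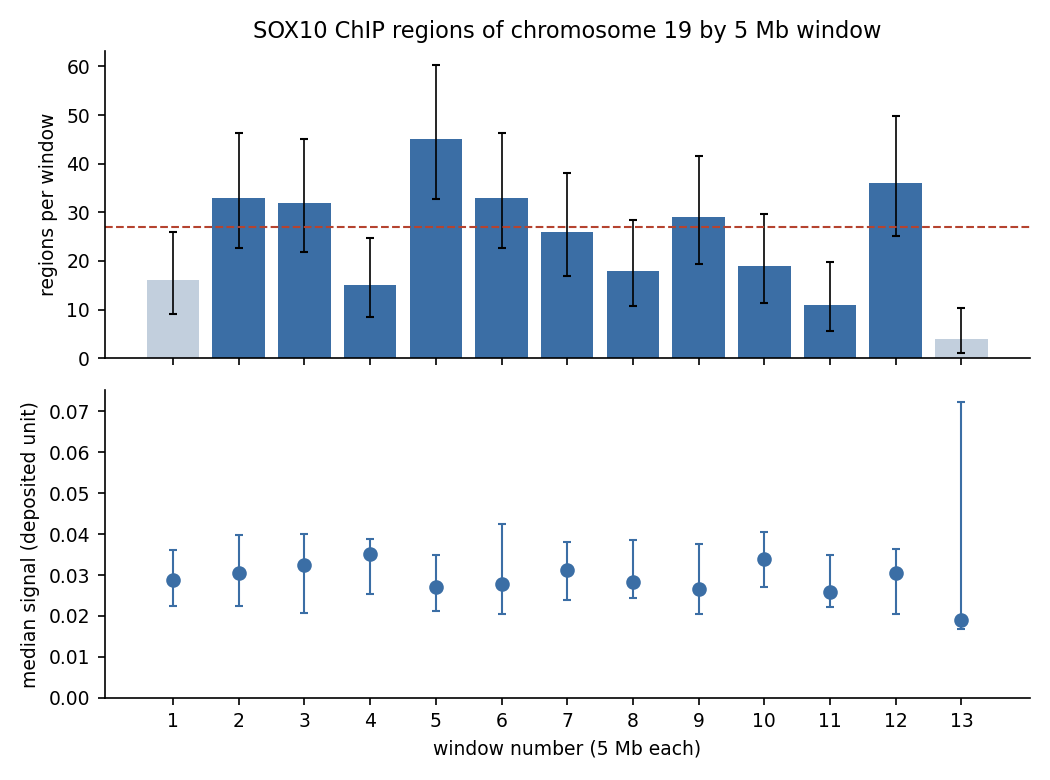
Number of SOX10 ChIP regions (upper panel, bars with exact Poisson 95% intervals) and median signal with quartiles (lower panel, points and bars) in each 5 Mb window of chromosome 19. Dark bars are the 11 whole windows, whose mean of 27 is the dashed line, pale bars are the end windows, and counts of the whole windows run from 11 to 45 while the medians of the whole windows stay between 0.0259 and 0.0351.

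The coefficient of variation (SD divided by mean) of regions per 5 Mb window measures how unevenly a chromosome is filled. It was 0.380 on chromosome 19. The other 18 autosomes ranged from 0.528 (chromosome 17) to 1.40 (chromosome 11), with a median of 0.680. The fullest window of chromosome 19 held 1.67 times its mean, where the other autosomes ranged from 1.91 times (chromosome 17) to 7.03 times (chromosome 11). Its emptiest window held 11 regions. On every other autosome the emptiest held 0 to 3, and 12 of the 18 had at least 1 window with none.

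Other dense autosomes were filled less evenly. Chromosomes 4, 15, 13 and 18 had 5.39, 5.15, 4.98 and 4.42 regions per Mb, and their coefficients of variation were 0.767, 0.797, 0.602 and 0.577. The mean window of chromosome 4, at 28 regions, was close to that of chromosome 19, while its windows ran from 0 to 69. On chromosome 15 they ran from 0 to 64. Over the 19 autosomes Spearman's rho of the coefficient with regions per Mb was 0.12, and with chromosome length it was also 0.12.

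A short chromosome samples fewer windows, so stretches of the same length were set beside it. The other autosomes gave 270 overlapping stretches of 11 whole windows, or 55 Mb. Of these, 3 (1.11%) had a lower coefficient of variation than chromosome 19. They lay on chromosomes 5 (1 stretch, 0.365) and 6 (2 stretches, lowest 0.353). The coefficient also holds counting error, which weighs more in windows with fewer regions, and this was not taken out of the stretches. The mean window held 11.4 regions on chromosome 5 and 11.7 on chromosome 6, against 27 on chromosome 19. The number of stretches as even as chromosome 19 may therefore be too low. The highest of all stretches was 1.23, on chromosome 11. Leaving out each window of chromosome 19 in turn gave 0.323 to 0.403. The lowest value came without the window of 11 regions from 50 to 55 Mb.

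**Figure D2:**
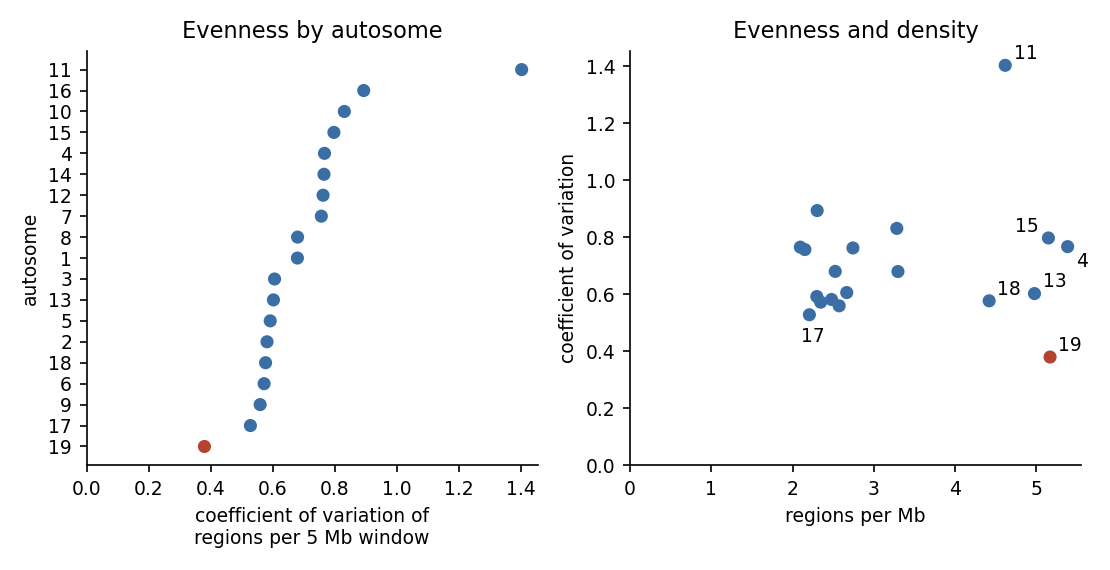
Coefficient of variation of regions per 5 Mb window for the 19 autosomes in rising order (left) and against regions per Mb (right), 1 point per autosome with chromosome 19 in red. Chromosome 19 lies lowest at 0.380, below chromosome 17 at 0.528, while chromosomes 4 and 15 of like density lie at 0.767 and 0.797.

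The variance of the counts divided by their mean orders the autosomes differently. It was 3.90 on chromosome 19 and 3.07 on chromosome 17, so that chromosome 19 took the third place from the bottom. This ratio grows with the mean count wherever the windows differ by more than counting error, and chromosome 17 had a mean of 11 regions per window against 27. The coefficient of variation errs the other way, since counting error raises it more where counts are low. By the root of the excess variance divided by the mean, chromosome 19 was lowest at 0.328 and chromosome 17 came closer, at 0.434.

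Empty stretches took up much of the chromosome all the same. 13 gaps of 1 Mb or more summed to 22.7 Mb, or 39.2% of the span from the first to the last region. The remaining span held 8.99 regions per Mb. These sums were not made for the other autosomes, so they do not set chromosome 19 apart. The largest gap, from 47949847 to 53088380, was 5.14 Mb wide and left 266 regions before it and 51 after it. The next ran from 12871590 to 16021093 (3.15 Mb) and from 34777261 to 36608671 (1.83 Mb). The largest gap was the fourth smallest among those of the 19 autosomes, with a median of 6.96 Mb on the others. It was 28.1 times the mean gap of the chromosome, the fourth highest ratio of 19. The regions on both sides of it were alike in signal, with a median of 0.0301 before (quartiles 0.0220 and 0.0388) and 0.0299 after (quartiles 0.0199 and 0.0363). Gap sizes on chromosome 19 had a coefficient of variation of 2.38, which was the eleventh lowest of 19. Chromosome 19 was thus not the most even of the autosomes by the sizes of its single gaps.

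**Figure D3:**
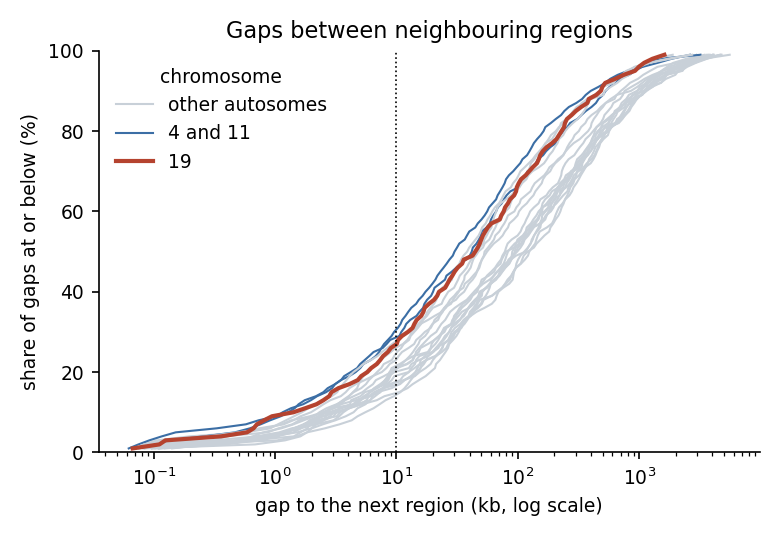
Cumulative share of gaps (%) between neighbouring regions by gap size in kb on a log scale, 1 line per autosome drawn from the 1st to the 99th percentile. The red line of chromosome 19, with 26.9% of its gaps under 10 kb (dotted line), runs above most of the other autosomes in grey. Its median gap of 44.5 kb lies near those of chromosomes 11 (41.7 kb, blue), 18 and 13 (46.5 and 47.3 kb, grey), while chromosome 4 (blue) has 30.1 kb.

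Close neighbours were frequent. The median gap was 44.5 kb (quartiles 8.49 and 160), against a median of 81.4 kb over the other autosomes. Median gaps were also short on the dense chromosomes 4 (30.1 kb), 15 (38.2 kb), 18 (46.5 kb) and 13 (47.3 kb). The share of gaps under 10 kb was exceeded on chromosomes 4 (30.3%), 11 (28.7%) and 15 (27.6%), all inside the interval of chromosome 19. Chromosome 10, with 3.28 regions per Mb, had 26.7%. Gaps under 1 kb made up 29 of 316 (9.18%). That was the highest share among the 19 autosomes, by a narrow margin over 8.99% on chromosome 4, with a median of 4.57% on the others. Whether regions this near to each other are separate sites cannot be read from the list.

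Joined at gaps under 10 kb, the 317 regions made 232 units, 177 with no neighbour that near and 55 runs. These were 35 pairs, 11 runs of 3, 8 runs of 4 and 1 run of 5. They took in 140 regions, or 44.2%, the third highest share of 19. Long runs were fewer on chromosome 19 than on chromosomes 4, 11 and 15, which also held more regions (835, 562 and 533). Its largest run had 5 regions, where chromosome 4 had one of 16 and chromosome 11 one of 12. Runs of 5 or more numbered 15 on chromosome 4, 10 on chromosome 11, 6 on chromosome 15 and 1 on chromosome 19. The median of the other 18 autosomes was 2 such runs, with fewer than 1 on 5 of them and 1 on 3. Their median largest run had 6 regions.

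The run of 5 spanned 14.9 kb from 24234922 to 24249827, in the fullest window. Its signals in order were 0.00998, 0.0331, 0.0371, 0.0171 and 0.0213, so 3 of its members lay below the chromosome's median. The run of 4 with the highest median signal (0.0506) lay from 5839785 to 5850455. Its first 3 regions had signals of 0.0530, 0.0483 and 0.0539, and the last, 2122 bp wide, had 0.0289. The middle regions of this run were 0.064 kb apart.

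Strong and weak regions stood side by side in other runs. From 10017047 to 10035624 the signals were 0.0101, 0.0683, 0.0242 and 0.0528. A second run of 4 in the same window lay from 10144811 to 10162181, with 0.0406, 0.0595, 0.0225 and 0.0399. The run from 3839628 to 3856140 held the third strongest region of the chromosome, with signals of 0.0368, 0.0708, 0.0423 and 0.0340. By contrast the run from 55817757 to 55831999 was nearly level, between 0.0282 and 0.0328.

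The 3 remaining runs of 4 lay from 8752263 to 8767247 (median signal 0.0307), from 21873268 to 21893561 (0.0362) and from 33049082 to 33054972 (0.0243). Thus 5 of the 9 runs of 4 or 5 fell in the first 3 windows. The 37 regions of these 9 runs reached 0.0328 in median signal (quartiles 0.0242 and 0.0441) and 889 bp in median width. Those in runs of 2 or 3 had 0.0266 (quartiles 0.0207 and 0.0354) and 773 bp, and single regions had 0.0320 (quartiles 0.0216 and 0.0378) and 604 bp. Runs were therefore made of wider regions than the singles, while signal followed no order with run size.

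**Figure D4:**
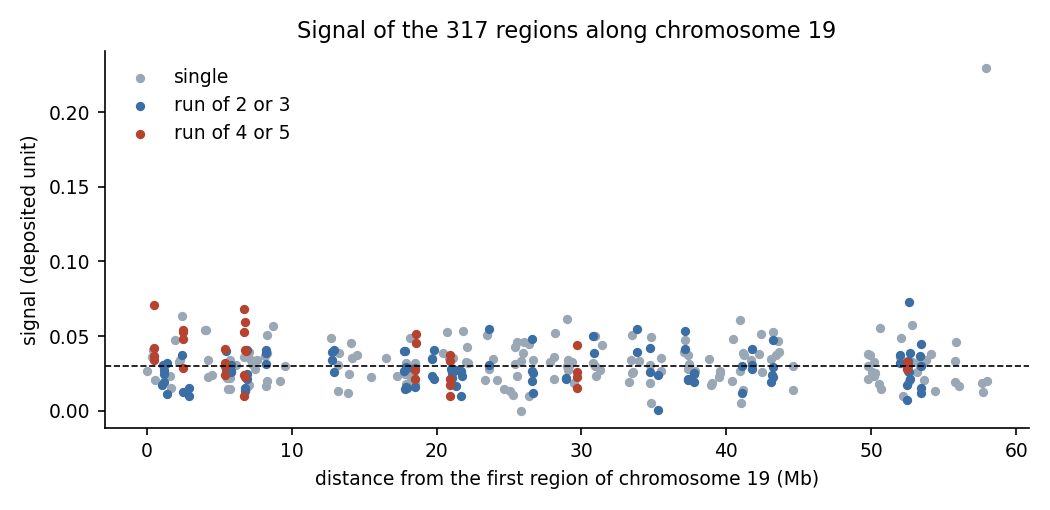
Signal (deposited unit) of each of the 317 regions against its distance in Mb from the first region of chromosome 19, coloured by the size of the run it belongs to, with the median of 0.0300 as a dashed line. Points form a level band along the chromosome with wide empty stretches, and 1 region near the far end reaches 0.230.

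The signal is the fifth column of the list, and its unit is not stated. Among the 7282 regions of the list that were under 1500 bp and above 0, 99.8% had a product of signal and width that was a multiple of 0.0479, to within 0.05 of that step, as it would be if each base of a read added 1 step to a mean coverage. On chromosome 19 it was so in all 289 such regions. Reads were taken as 54 bases long, a fixed setting that was not fitted. The median region of chromosome 19 was then worth 7.81 reads (quartiles 4.50 and 13.0) and 61.8% were worth under 10. These read equivalents are a reading of the values and may be net of the control. At such low values single regions are ranked with little precision. The depth of the samples is unknown.

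Signal on chromosome 19 had quartiles of 0.0214 and 0.0384, against 0.0199 and 0.0374 in the whole list, where the median was 0.0280. The medians of chromosomes 4, 11 and 5 were higher. Along the chromosome the signal hardly changed. The median of the whole windows lay between 0.0259 (50 to 55 Mb) and 0.0351 (15 to 20 Mb), a ratio of 1.36. That ratio was the lowest of the 19 autosomes, although chromosomes 13 and 16 came close at 1.41 and 1.42. The median of the others was 1.96, and chromosome 4 reached 3.07 and chromosome 6 reached 6.36. Chromosome 19 also had the fewest windows, 11 where the others had a median of 19.5 with at least 5 regions each. Its windows held more regions, a mean of 27 against a median of 13.4 over the other autosomes, and medians of fewer regions vary more. The fullest window had one of the lower medians, 0.0271, and the window of 15 regions beside it had the highest. The signals of neighbouring regions had a Spearman's rho of -0.016 over 316 pairs. On the other autosomes it ranged from -0.020 (chromosome 9) to 0.31 (chromosome 11), with a median of 0.051.

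The strongest region of chromosome 19 stood apart from all others on it. It lay from 61275416 to 61275750, was 335 bp wide and had a signal of 0.230, which was 7.65 times the chromosome's median, 3.16 times the next region and rank 33 in the whole list. It was the last but one region, and ended 17.1 kb before the end of the last region. Its only near neighbour, from 61292420 to 61292808, had 0.0199. Chromosomes 4, 6, 11 and 17 also had their strongest region within 100 kb of the first or last listed base, in each case the first. Chromosome 19 was the only autosome with it at the last.

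Below that region the signals fell without a break. The second was a narrow region of 225 bp from 55943560 to 55943784 (0.0727, or 6.33 read equivalents). The third, 0.0708, was in the run that begins at 3839628, and the fourth, 0.0683, in the run that begins at 10017047 (23.8 read equivalents). The fifth to seventh were single regions from 5741364 to 5741816 (0.0636), from 32366961 to 32367337 (0.0617) and from 44285277 to 44285945 (0.0607). Ranks 8 to 15 had signals of 0.0595 to 0.0539 and lay in 6 windows of the chromosome. The 15 strongest regions together fell in 10 of the 13 windows.

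Of the 793 regions that formed the 10% with the highest signal in the list, chromosome 19 held 37, or 4.67% (exact binomial 95% interval 3.31 to 6.37), where it held 4.00% of all regions. Of the 5% with the highest signal it held 2.52%, below its share of all regions, so the direction depends on the limit chosen. Regions of the highest 10% made up 11.7% of those on chromosome 19, the fourth highest share of 19. On the other autosomes the median was 5.80%, from 2.84% on chromosome 9 to 23.3% on chromosome 11 and 25.7% on chromosome 4. At the other end, 1 region of 285 bp (29138424 to 29138708) was listed at a signal of 0, and chromosome 8 had the largest share of such regions at 2.13% against 0.315% here.

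Widths on chromosome 19 ran from 167 to 2689 bp, with quartiles of 469 and 1005 bp. The whole list had a median of 683 bp and quartiles of 491 and 978. Regions of 1500 bp or more numbered 27 (8.52%), the fifth highest share of 19. Of these, 7 lay in the window from 20 to 25 Mb, which held 14.2% of all regions of the chromosome. The 5 widest had signals near or above the chromosome's median, apart from 1. They lay from 21109624 to 21112312 (2689 bp, 0.0399), from 27221333 to 27223879 (2547 bp, 0.0349), from 24246107 to 24248244 (2138 bp, 0.0171), from 5848334 to 5850455 (2122 bp, 0.0289) and from 10160066 to 10162181 (2116 bp, 0.0399). Only the second of these was a single region.

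Wider regions had slightly higher signal. In 5 classes of 63 or 64 regions by width, the median signal rose from 0.0259 in the narrowest (167 to 435 bp) through 0.0279, 0.0288 and 0.0300 to 0.0329 in the widest (1109 to 2689 bp). The quartiles of the end classes, 0.0196 to 0.0360 and 0.0256 to 0.0396, overlapped over most of their range. Spearman's rho was 0.14 across the 317 regions, which share 1 list, and it ranged from -0.042 to 0.26 on the other autosomes. Read equivalents rise with width by construction, and 98.4% of the narrowest class were worth under 10 reads, against 7.81% of the widest.

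**Figure D5:**
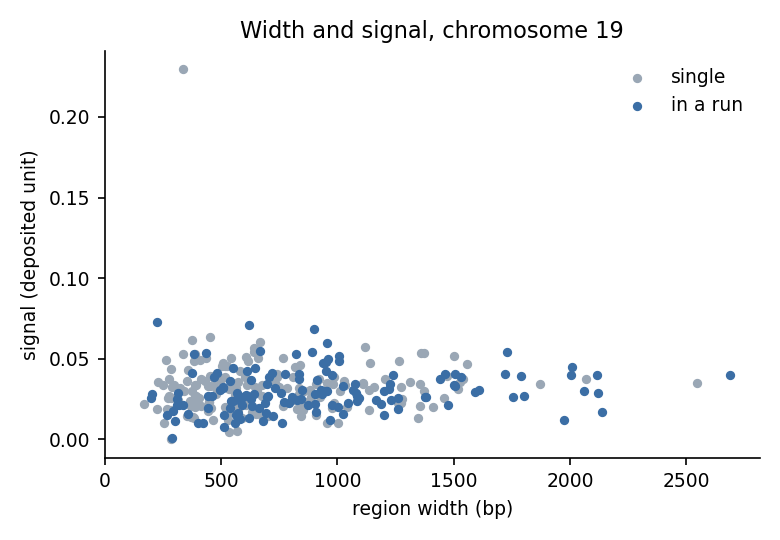
Signal (deposited unit) against width in bp for the 317 regions of chromosome 19, with single regions in grey and regions in runs in blue. All points but 1 lie at or below 0.0727, the 27 regions of 1500 bp or more lie between 0.0121 and 0.0545, and the strongest region at 0.230 is 335 bp wide.

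Regions were not assigned to genes and no sequence is shown, because the gene and promoter tables used here are of GRCm38.p6 and the list is of mm9.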

How the data were processed

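The list analysed was made by the authors from the pooled SOX10 ChIP samples against the control. FastQC, Bowtie 0.12.8, SAMtools 1.3.1, MACS2 2.1.1 and build mm9 are named per the submitters' processing notes, without parameters. The calling threshold is not given in the sources used here. The deposited signal, 1 value per region, has no stated unit or normalization. Starts were written 1-based, and the largest end coordinate stood for the length of a chromosome. Regions were put in windows of 5 Mb by their centre, and evenness was measured over whole windows, without the first and the partial last. Runs joined regions with gaps under 10 kb. Regions named in the text are the 15 strongest, the 5 widest, those at 0, runs of 4 or more, the 3 largest gaps and the ends. The chromosome and these rules were chosen with earlier results of these data known. Correlations are descriptions, and no test was run. Functions were tested on simulated data. Python 3.11.15, numpy 2.4.6, pandas 2.3.3 and scipy 1.17.1 were used. Alternatives changed the windows, the measure of evenness, the gap limit and the regions used. Assignment to genes and the SOX motif search, both planned, were not run for lack of an mm9 reference.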

Additional observations from a re-analysis of the deposited data

How the results depend on the processing

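Chromosome 19 had the lowest coefficient of variation of the 19 autosomes under 9 of 10 alternatives, and took the third place from the bottom by variance divided by mean (3.90). Its value was 0.681 with windows of 2 Mb, 0.268 with windows of 10 Mb, 0.424 with equal windows over the span, 0.287 with runs counted once and 0.354 among the 50% of the list with the highest signal. The Gini coefficient was 0.204, and the root of the excess variance divided by the mean was 0.328. With each autosome's fullest or emptiest window left out, both chosen after seeing the data as were the stretches of 11 windows, it was 0.349 and 0.323. Density fell to 3.79 per Mb with runs counted once. The share of close neighbours was 18.7% at 5 kb, 37.7% at 20 kb and 16.0% among the 50% with the highest signal, where it was the seventh highest instead of the fourth. Over the 232 units, single regions included, the median of the highest signal in each unit was 0.0324. The median summed width of each unit was 779 bp. Both are larger by construction. Chromosome 19 held 2.52% of the 5% of the list with the highest signal, against 4.67% of the 10% and 4.00% of all regions, so that it lay below its share of the list instead of above it, and the cause was not tested. The other 7 alternatives stayed within the interval of their value. As both ChIP samples are pooled in the values, neither samples nor pairs of samples could be compared.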
